A study of Mus musculus with 6 samples.

Results

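The genes of cholesterol and fatty acid synthesis were examined in pancreatic islets of mice that lack urocortin 3. The list holds 32 genes, enzymes and regulators of both pathways, out of 21813 gene symbols with values. It was chosen with earlier results of these data known. A row of the table was found for 31 of them, and where a gene had several transcript rows the one with the highest mean RPKM was used. Hmgcs1, the synthase at the entry to the mevalonate pathway, had no row and is not analysed here. Of the 31, 30 averaged at least 1 RPKM over the 6 libraries and entered the test across 12652 genes. Hsd17b7 averaged 0.958 RPKM and was left out of it. The Ucn3 null group was 3 male mice with a knockout of Ucn3, and the wild-type group was 3 male littermates, all adults of 3 months. Whole islets with their mixed cell types were used, each library was 1 animal, and the sources used here do not say how the null allele was made.

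Cells make cholesterol from acetyl-CoA. The mevalonate steps build isoprene units, which are joined to squalene, closed into lanosterol and then trimmed to cholesterol. Fatty acids start from the same acetyl-CoA, which ATP citrate lyase releases from citrate in the cytosol, and are then elongated and desaturated. Both pathways are switched on by the SREBP transcription factors, which the escort protein SCAP carries out of the endoplasmic reticulum when sterols are scarce and which the INSIG proteins hold back when sterols are plentiful. In beta cells, citrate exported from mitochondria during glucose metabolism feeds this acetyl-CoA pool, and cholesterol is a component of the insulin granule membrane.

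The deposited values are RPKM, the reads on a transcript per kilobase of its length, scaled to the reads of the library, so levels of different genes can be compared. Depth, estimated from the spacing of low values, was 46440000 to 51890000 reads in null libraries and 42500000 to 48430000 reads in wild-type libraries. At that depth the 31 genes held about 129 to 52453 reads in a library. Ucn3 stood at 1.61, 1.63 and 1.80 RPKM in null islets, against 136, 157 and 155 RPKM in wild-type islets, so the libraries matched their labels (limma adjusted p = 6.6e-08). Markers of acinar cells, the digestive enzyme cells around islets, differed widely between single libraries. Their mean log2(RPKM + 1) over 30 genes was 8.29, 7.61 and 6.33 in null replicates 1 to 3 and 6.57, 3.69 and 5.43 in wild type replicates 1 to 3, and their summed level ran from 6901 to 34170 RPKM in null libraries and from 762.8 to 9264 RPKM in wild-type libraries. All 29 tested acinar genes had positive log2 differences, and 0 passed. The mean was 2.18 higher in null libraries, though null replicate 3 lay below wild type replicate 1. Differences were therefore also computed with the acinar mean as a covariate, and with the acinar genes left out and the remaining totals made equal. Since the acinar level ran partly with genotype, the covariate fit cannot fully separate them. Adipocytes express lipogenic enzymes strongly, so their markers were followed as well. The 11 adipocyte markers summed to between 31.9 and 33.5 RPKM in null libraries and between 37.3 and 41.5 RPKM in wild-type libraries, and 8 of them, among them Adipoq, Plin1, Lep and Retn, were under 0.5 RPKM in every library. The sums did not overlap between the groups. Lpl, which islets also express, made up most of that sum and was lower in every null library (ratio 0.822, limma adjusted p = 0.49). Null values were lower without overlap for 13.2% of all genes tested. Fabp4 (ratio 0.85) and Pparg (ratio 1.07) overlapped. The cell source of this difference was not tested. Beta cell markers other than Ucn3 averaged 9.59, 9.77 and 9.71 on the log2(RPKM + 1) scale in null and 9.59, 9.61 and 9.71 in wild-type libraries (10 genes), and these groups overlapped. Of these genes 5 had positive and 5 negative differences, and 0 passed. Nkx6-1 (null to wild type ratio 1.22) and Glp1r (ratio 1.31) were higher in null without overlap, as were 1.9% of all genes tested. The ratio of Ins2 was 0.898, with overlap. Delta cell markers averaged 4.17, 4.26 and 4.29 in null and 4.51, 4.75 and 4.72 in wild-type libraries (7 genes), without overlap. These markers did not move together. The null to wild type ratio was 0.408 for Sst, 0.513 for Hhex, 0.577 for Rbp4 and 0.579 for Ghsr. It was 1.01 for Pdyn, 0.994 for Frzb and 1.21 for Casr. The part of the delta marker difference in the values below was not tested. In bulk RNA, fewer cells of a type and less RNA per cell cannot be told apart.

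No gene of the list passed an adjusted p of 0.05 between null and wild-type islets in either direction (limma, Benjamini-Hochberg over all genes tested, smallest adjusted p among the 30 genes 0.49). Over all genes 2 of 12652, or 0.0158%, passed, both lower, Ucn3 itself and the pseudogene Marcksl1-ps4. Among the 30 genes, 14 had positive and 16 negative log2 differences, with a median of -0.02, beside -0.03 over all genes tested. The differences ran from -0.28 for Fads2 to 0.17 for Lss. Their 95% intervals all lay between -0.47 and 0.42 on the log2(RPKM + 1) scale. Limma-voom on estimated reads, which adds no pseudocount of 1 RPKM, also called 0 of the 30 genes, with intervals between -0.56 and 0.63. At an unadjusted p under 0.05 limma counted 2 of the 30 genes, Fads2 and Sc5d, both lower, or 6.67%. Over all genes tested the share at that p was 9.36%, with 7.9% lower and 1.46% higher. The share in the list was therefore near that of all genes. With the acinar mean as a covariate, 19 of the 30 differences were positive and 11 negative, with a median of 0.08, and 22 of them moved by over 1.5 times or changed sign. Their median SE was 0.14, against 0.11 without the covariate. In that fit 0 of the 30 genes passed (limma, smallest adjusted p 0.97), and 1 gene, Elovl5, 3.33%, had an unadjusted p under 0.05, beside 3.82% of all genes tested. The log2 differences with and without it were 0.285 and 0.134 for Mvd, 0.275 and 0.112 for Tm7sf2, and 0.195 and 0.065 for Fasn.

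**Figure D1:**
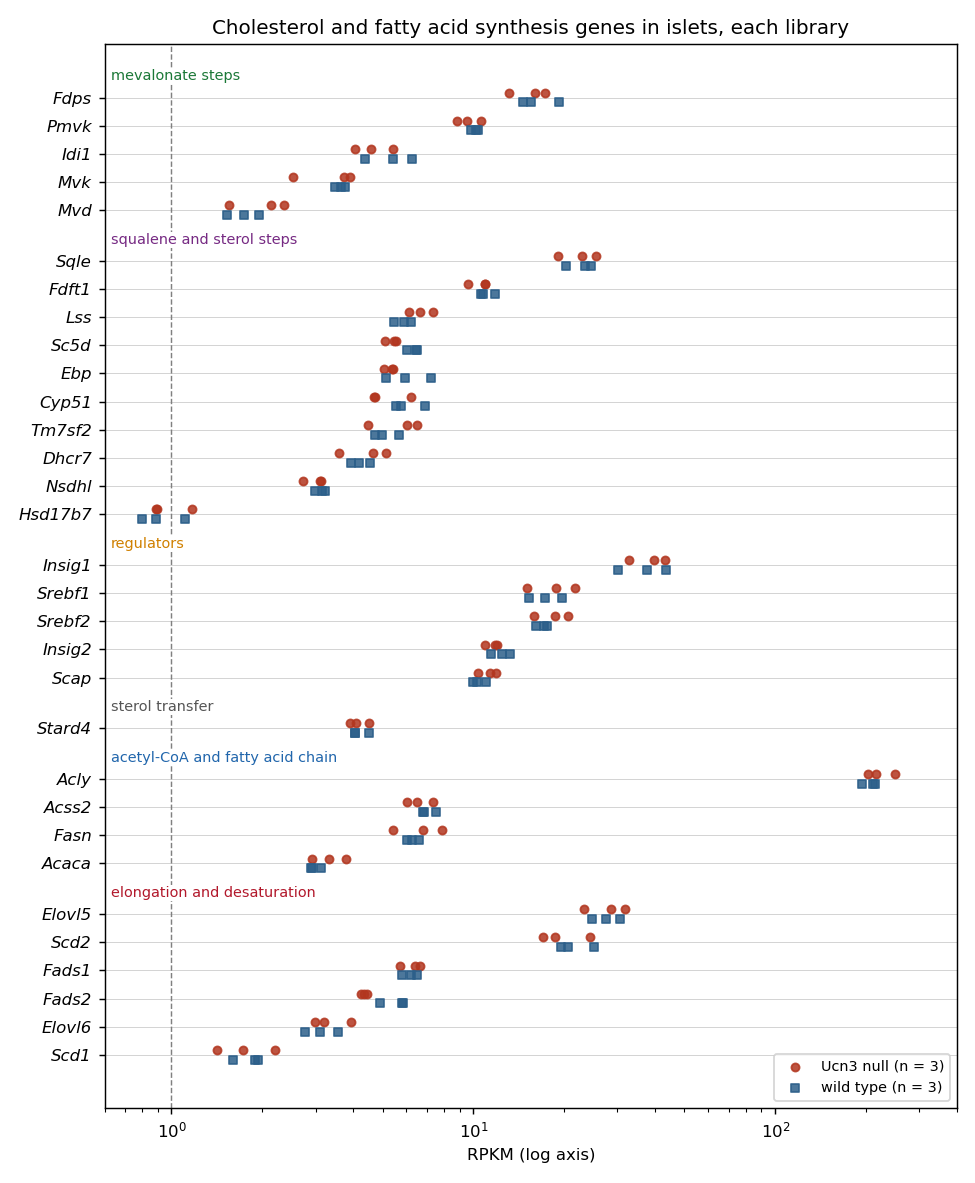
RPKM on a log axis for 31 genes, grouped by role, with circles for 3 Ucn3 null libraries above squares for 3 wild-type libraries. The dashed line marks 1 RPKM, the mean level needed for a test. Acly stands apart at about 200 RPKM in both groups, and circles and squares interleave for nearly all genes.

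The genes spanned a wide range of levels. Acly, which encodes ATP citrate lyase, averaged 214 RPKM over the 6 libraries and ranked 77 among the 12652 genes tested. It was followed by Insig1 at 37.8, Elovl5 at 27.7, Sqle at 22.6 and Scd2 at 20.8 RPKM. Srebf1 at 18.0 and Srebf2 at 17.6 RPKM, and Scap at 10.8 and Fdft1 at 10.8 RPKM, were neighbours whose libraries overlapped. In all, 11 genes averaged above 10 RPKM, 19 between 1 and 10 RPKM, and 1 below. The median of the 31 genes was 6.21 RPKM, beside 6.24 RPKM for all genes tested.

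Acly held 202, 249 and 215 RPKM in null islets, against 194, 211 and 214 RPKM in wild-type islets. The highest value was in a null library and the lowest in a wild-type library, and the groups overlapped. The mean was 222 ± 24.1 RPKM in null and 206 ± 10.5 RPKM in wild-type islets (SD, n = 3 each), with a log2 difference of 0.10 (SE 0.11, limma adjusted p = 0.81). The table lists Acly in 2 transcript rows whose values were proportional within 0.1 percent in every library, so they carry the same reads.

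**Figure D2:**
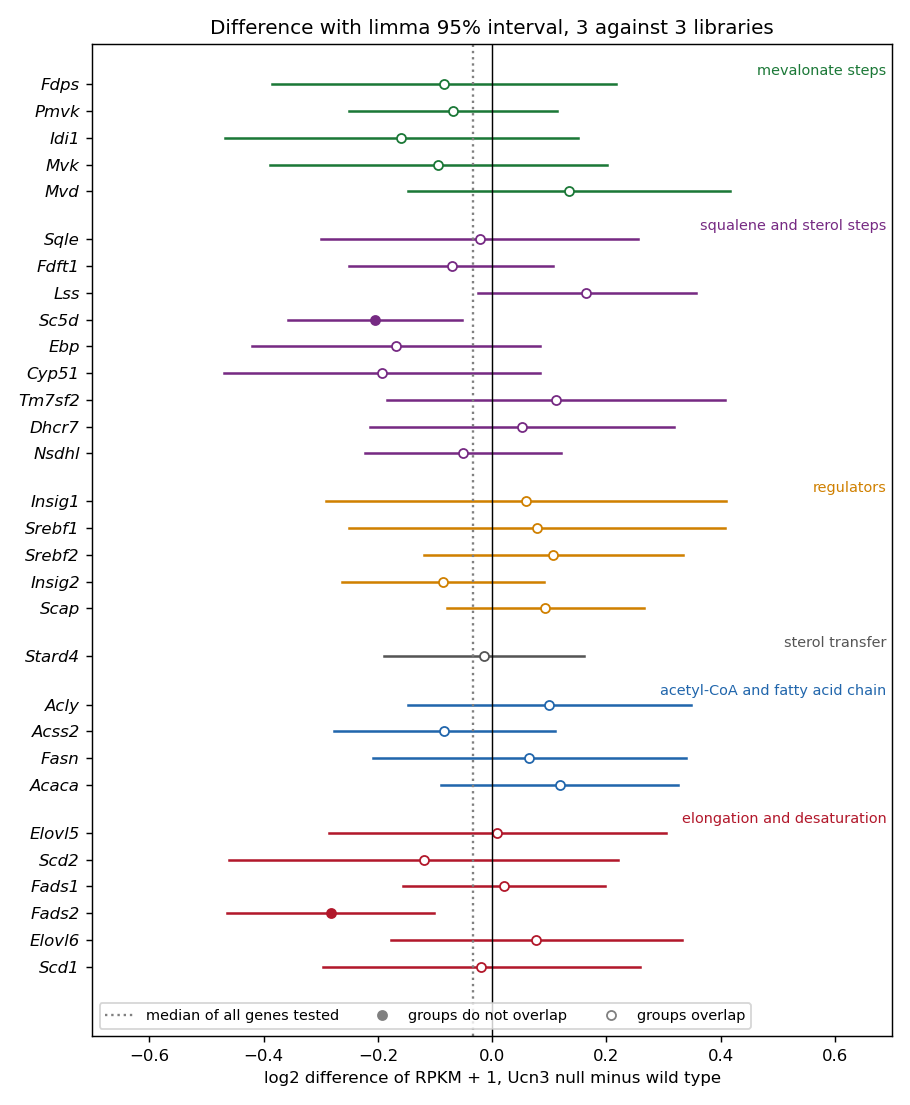
Log2 difference of RPKM + 1, Ucn3 null minus wild type, with its 95% interval from limma for 30 genes by role. Filled points are genes whose 3 null and 3 wild-type values do not overlap, and the dotted line is the median of all genes tested at -0.03. Only Fads2 and Sc5d have filled points and intervals that leave out 0.

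Fads2 and Sc5d were the 2 genes of the list whose groups did not overlap, and both were lower in null islets. Over all genes tested, the groups did not overlap with null lower for 13.2% and with null higher for 1.9%, 15.2% in all, so 2 of 30 genes, 6.67%, is no more than that background. Fads2 encodes a desaturase that acts on polyunsaturated fatty acids at the start of their conversion to longer forms. It held 4.26, 4.46 and 4.35 RPKM in null islets, against 5.81, 5.86 and 4.92 RPKM in wild-type islets. The null animals lay close together, and wild type replicate 3 was nearest to them. The mean was 4.36 ± 0.10 RPKM in null and 5.53 ± 0.53 RPKM in wild-type islets (SD, n = 3 each), a null to wild type ratio of 0.788 and a log2 difference of -0.28 (SE 0.08, limma adjusted p = 0.49). Sc5d encodes a sterol desaturase near the end of cholesterol synthesis. Its values were 5.09, 5.52 and 5.45 RPKM in null islets, against 6.52, 6.44 and 6.01 RPKM in wild-type islets. Every null library was lower, with a mean of 5.35 ± 0.23 RPKM in null and 6.33 ± 0.27 RPKM in wild-type islets (SD, n = 3 each), a ratio of 0.846 and a log2 difference of -0.21 (SE 0.07, limma adjusted p = 0.49). With the acinar covariate, the log2 differences were -0.26 for Fads2 (SE 0.12) and -0.18 for Sc5d (SE 0.10), each with a limma adjusted p of 0.97. Over all alternatives tried, Fads2 ranged from -0.35 to -0.21 with adjusted p from 0.34 to 0.97, and Sc5d from -0.24 to -0.13 with adjusted p from 0.38 to 0.97. With 1 library left out, the number of listed genes without overlap has to be read against all genes tested in the same libraries. Without Ucn3 null replicate 1 it was 11 of 30, 36.7%, of which 9 were higher and 2 lower in null. Over all genes that share was 27.4%, with 10.9% higher and 16.5% lower. Without Ucn3 null replicate 2 it was 6 of 30, all lower, beside 18.6% of all genes. Leaving out wild type replicate 1 or wild type replicate 3 gave 5 genes each, 16.7%, beside 32.3% and 23.6% of all genes. Leaving out Ucn3 null replicate 3 or wild type replicate 2 gave 2 genes each, 6.67%, beside 29.15% and 20.97%. Median-ratio scaling gave 5 genes, 16.7%, beside 16.1% of all genes, and equal totals without the acinar genes gave 5, beside 13.6%. In both scalings Fads2 and Sc5d were lower and 3 genes, Lss, Scap and either Acaca or Acly, were higher in null. Those scalings also moved all genes, with 8.24% lower and 7.82% higher under median-ratio scaling and 5.06% lower and 8.51% higher under equal totals.

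The promoters of these 2 genes are shown with that of Insig1, the most abundant regulator of the list, because SREBP sites usually act beside NF-Y and Sp1 sites in promoters. Each window runs from 250 bases before to 50 bases after the RefSeq start, in build GRCm38.p6, 300 bases read 5′ to 3′ on the strand of the gene. Capitals mark, on either strand, the sterol element core TCACNCCAC, the NF-Y box CCAAT, the Sp1 box GGGCGG and the E-box CACGTG. In these windows 0 bases were shared by overlapping motifs. The window of Sc5d is chr9:42264251-42264550 on the minus strand, that of Fads2 chr19:10101454-10101753 on the minus strand and that of Insig1 chr5:28071162-28071461 on the plus strand.
Sc5d: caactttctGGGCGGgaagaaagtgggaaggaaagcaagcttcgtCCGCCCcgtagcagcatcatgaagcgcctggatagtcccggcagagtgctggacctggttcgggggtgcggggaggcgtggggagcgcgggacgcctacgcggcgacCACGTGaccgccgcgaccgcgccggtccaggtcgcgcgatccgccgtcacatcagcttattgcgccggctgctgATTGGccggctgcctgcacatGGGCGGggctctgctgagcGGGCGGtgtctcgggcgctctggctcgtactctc
Fads2: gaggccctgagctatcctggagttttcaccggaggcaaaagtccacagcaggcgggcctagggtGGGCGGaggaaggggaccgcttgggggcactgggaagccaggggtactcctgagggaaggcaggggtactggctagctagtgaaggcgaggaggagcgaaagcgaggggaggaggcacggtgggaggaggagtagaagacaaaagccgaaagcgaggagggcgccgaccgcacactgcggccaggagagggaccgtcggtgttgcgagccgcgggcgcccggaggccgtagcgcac
Insig1: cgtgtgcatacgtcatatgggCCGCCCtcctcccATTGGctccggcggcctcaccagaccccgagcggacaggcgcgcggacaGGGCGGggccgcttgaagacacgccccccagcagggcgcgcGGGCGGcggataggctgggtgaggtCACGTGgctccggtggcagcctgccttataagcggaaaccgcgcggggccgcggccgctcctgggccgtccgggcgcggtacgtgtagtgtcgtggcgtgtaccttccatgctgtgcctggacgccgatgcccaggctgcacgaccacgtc
The Sc5d window held 1 CCAAT, 4 GGGCGG and 1 CACGTG. The Fads2 window held 1 GGGCGG and 0 of the other motifs. The Insig1 window held 1 CCAAT, 3 GGGCGG and 1 CACGTG. Windows were present for 25 of the 32 genes, 33 windows in all, of 32851 windows for all genes. Among the windows of the list, 66.7% held CCAAT, beside 37.4% of all windows. For GGGCGG the shares were 72.7% in the list and 35.7% in all windows, and for CACGTG 21.2% and 7.15%. TCACNCCAC was found in 1 window of the list, that of Hmgcs1, and in 1.24% of all windows. The windows of all genes came from 27025 genes, including many too low in these islets to be tested. They are therefore an unlike background to this list. A match to these letters is not a measured binding site.

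**Figure D3:**
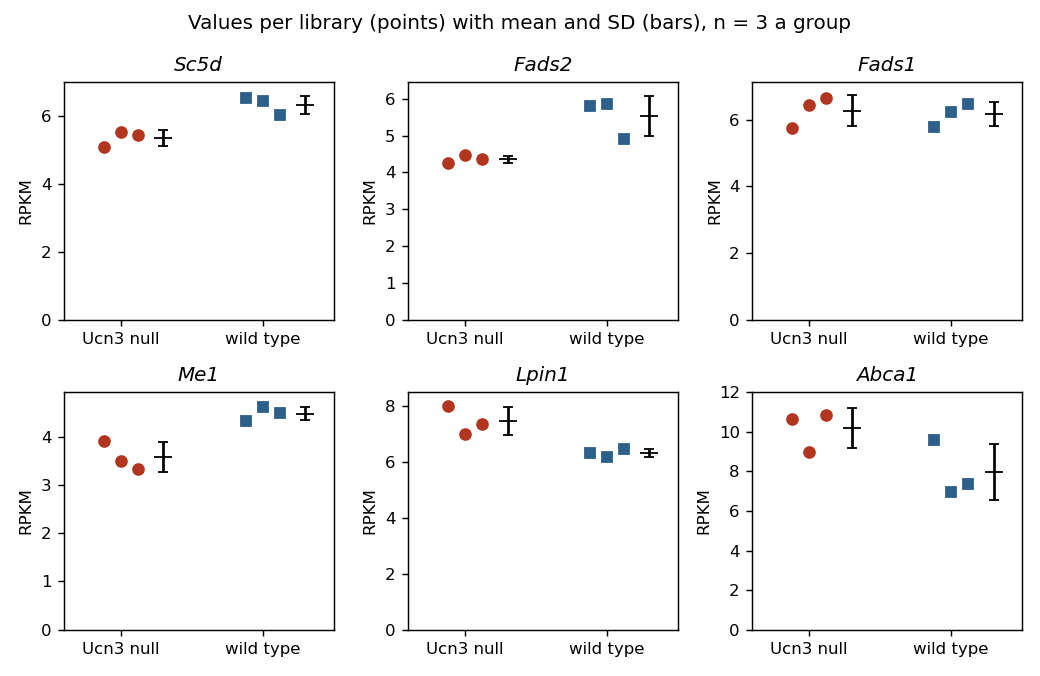
RPKM per library for 6 genes of sterol and lipid metabolism, with Ucn3 null as circles on the left and wild type as squares on the right, and the mean with SD beside each group (n = 3). Sc5d, Fads2 and Me1 are lower and Lpin1 is higher in all 3 null libraries, while Fads1 and Abca1 overlap between the groups.

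Fads1 is the partner desaturase of Fads2 in the polyunsaturated pathway. It was at 5.73, 6.43 and 6.64 RPKM in null islets, against 5.78, 6.22 and 6.48 RPKM in wild-type islets, and the groups overlapped (log2 difference 0.02, SE 0.08, limma adjusted p = 0.96). The ratio of Fads2 to Fads1 was 0.742, 0.694 and 0.655 in null islets and 1.01, 0.943 and 0.759 in wild-type islets. All null ratios were the lower ones, by a narrow margin against wild type replicate 3. Of 5 such pairs computed, chosen after the values were seen, this was the 1 pair without overlap, and with 3 against 3 animals an exact two-sided permutation test cannot go below a p of 0.1. The ratio of Scd2 to Scd1 averaged 11.3 ± 0.65 in null and 12.1 ± 1.7 in wild-type islets, that of Insig1 to Insig2 3.34 ± 0.53 in null and 3.04 ± 0.76 in wild-type islets, that of Srebf1 to Srebf2 1.01 ± 0.06 in null and 1.03 ± 0.12 in wild-type islets, and that of Elovl5 to Elovl6 8.48 ± 2.4 in null and 8.93 ± 2.1 in wild-type islets (SD, n = 3 each).

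Of the other enzymes that shape fatty acids, Scd2, a stearoyl-CoA desaturase, held 17.0, 24.4 and 18.6 RPKM in null islets and 19.5, 25.0 and 20.5 RPKM in wild-type islets. Scd1, its close relative, held 1.41, 2.21 and 1.73 RPKM in null islets and 1.93, 1.89 and 1.60 RPKM in wild-type islets. The groups overlapped for both, and the sources used here do not say how reads common to these near copies were counted. Elovl5, an elongase of polyunsaturated fatty acids, averaged 27.9 ± 4.31 RPKM in null and 27.6 ± 2.93 RPKM in wild-type islets, and Elovl6, an elongase of saturated ones, 3.38 ± 0.51 RPKM in null and 3.15 ± 0.40 RPKM in wild-type islets (SD, n = 3 each). With the acinar covariate the log2 difference of Elovl5 was 0.30 (SE 0.11, limma adjusted p = 0.97), against 0.01 (SE 0.13) without it. Within this role 0 of 6 genes passed, and the log2 differences had a median of -0.01.

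Downstream of Acly, Fasn, the fatty acid synthase, held 5.40, 7.88 and 6.80 RPKM in null islets, against 6.03, 6.59 and 6.27 RPKM in wild-type islets. Null libraries held both the lowest and the highest value. Acaca, the acetyl-CoA carboxylase that commits acetyl-CoA to fatty acids, held 2.91, 3.33 and 3.77 RPKM in null islets, against 3.13, 2.90 and 2.92 RPKM in wild-type islets (log2 difference 0.12, SE 0.09, limma adjusted p = 0.72). Acss2, which makes acetyl-CoA from acetate, averaged 6.61 ± 0.67 RPKM in null and 7.05 ± 0.40 RPKM in wild-type islets (SD, n = 3 each). Of the 4 genes that supply acetyl-CoA and build the chain, 3 had positive differences and 0 passed.

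Along the mevalonate steps, 1 of 5 tested genes had a positive and 4 a negative difference, and 0 passed. Mvk and Pmvk, the kinases of the pathway, averaged 3.38 ± 0.74 and 9.64 ± 0.90 RPKM in null and 3.63 ± 0.14 and 10.1 ± 0.30 RPKM in wild-type islets (SD, n = 3 each). Mvd, the decarboxylase, was at 2.02 ± 0.41 RPKM in null and 1.74 ± 0.21 RPKM in wild-type islets, on 129 to 198 reads, the fewest of the 30 genes. Idi1, the isomerase of isoprene units, was at 4.68 ± 0.69 RPKM in null and 5.36 ± 0.96 RPKM in wild-type islets. Fdps, which joins these units to farnesyl diphosphate, was at 15.4 ± 2.12 RPKM in null and 16.4 ± 2.43 RPKM in wild-type islets (SD, n = 3 each).

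In the squalene and sterol steps, 3 of 9 tested genes had positive and 6 negative differences, and 0 passed. Sqle, the squalene epoxidase and a rate-controlling step, held 19.0, 25.4 and 23.0 RPKM in null islets, against 20.3, 24.6 and 23.5 RPKM in wild-type islets, and the groups overlapped (log2 difference -0.02, SE 0.12, limma adjusted p = 0.97). Lss, which closes the sterol rings, held 6.11, 7.33 and 6.64 RPKM in null islets, against 6.20, 5.45 and 5.91 RPKM in wild-type islets. Overlap here came from null replicate 1 and wild type replicate 1 (log2 difference 0.17, SE 0.08, limma adjusted p = 0.58). Cyp51, the demethylase that acts on lanosterol next, held 4.71, 6.23 and 4.69 RPKM in null islets, against 6.93, 5.76 and 5.56 RPKM in wild-type islets (log2 difference -0.19, SE 0.12, limma adjusted p = 0.65). Ebp, a sterol isomerase, held 5.04, 5.42 and 5.39 RPKM in null islets, against 5.14, 7.23 and 5.95 RPKM in wild-type islets (log2 difference -0.17, SE 0.11, limma adjusted p = 0.67). In the fit with the acinar covariate the log2 difference was -0.33 for Cyp51 and turned to 0.07 for Ebp. Null replicate 2 lay within the wild-type range for Cyp51, and wild type replicate 1 within the null range for Ebp.

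The remaining sterol genes overlapped as well. Fdft1, the squalene synthase, averaged 10.5 ± 0.76 RPKM in null and 11.0 ± 0.62 RPKM in wild-type islets. Tm7sf2, a sterol reductase, averaged 5.67 ± 1.07 RPKM in null and 5.13 ± 0.50 RPKM in wild-type islets, and Dhcr7, a late reductase, 4.45 ± 0.79 RPKM in null and 4.22 ± 0.31 RPKM in wild-type islets. Nsdhl and Hsd17b7, which act together in removing methyl groups, averaged 2.99 ± 0.22 and 0.982 ± 0.16 RPKM in null and 3.13 ± 0.13 and 0.934 ± 0.16 RPKM in wild-type islets (SD, n = 3 each). Stard4, a cytosolic carrier of sterols, averaged 4.17 ± 0.30 RPKM in null and 4.22 ± 0.27 RPKM in wild-type islets.

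The regulators gave the same picture, with 4 positive and 1 negative difference among 5 genes and 0 past the threshold. Srebf1, which encodes the SREBP of fatty acid genes, held 15.1, 21.8 and 18.8 RPKM in null islets, against 15.3, 19.7 and 17.3 RPKM in wild-type islets. Srebf2, which encodes the SREBP of sterol genes, held 15.9, 20.6 and 18.6 RPKM in null islets, against 17.1, 17.6 and 16.1 RPKM in wild-type islets. Insig1, itself an SREBP target, held 32.7, 43.1 and 39.7 RPKM in null islets, against 43.4, 37.7 and 30.2 RPKM in wild-type islets. For each of these genes the groups overlapped, with log2 differences of 0.08, 0.11 and 0.06 and limma adjusted p of 0.91, 0.78 and 0.94. With the acinar mean as a covariate that of Srebf1 was 0.33 (SE 0.17, limma adjusted p = 0.97). Insig2 averaged 11.6 ± 0.58 RPKM in null and 12.4 ± 0.90 RPKM in wild-type islets, and Scap 11.2 ± 0.74 RPKM in null and 10.4 ± 0.56 RPKM in wild-type islets (SD, n = 3 each).

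**Figure D4:**
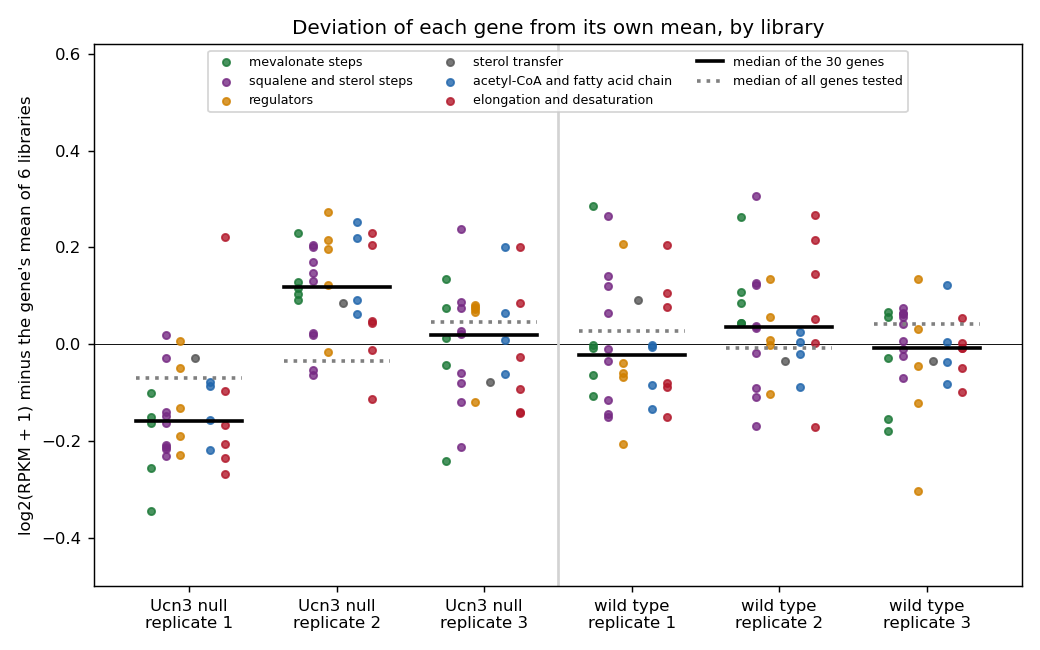
Deviation of log2(RPKM + 1) of each of 30 genes from its own mean over 6 libraries, by library and role, with 3 Ucn3 null libraries on the left. Solid bars are medians of the 30 genes and dotted bars medians of all genes tested. Null replicate 1 sits low at -0.16 and null replicate 2 high at 0.12, while the wild-type medians lie between -0.02 and 0.04.

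The null animals stood apart from each other in these genes. Null replicate 1 held the lowest of the 6 values for 18 of the 30 genes, 60.0%, where it held the lowest value for 34.7% of all genes tested. Null replicate 2 held the highest value for 12 of 30, 40.0%, where it did so for 6.69% of all genes. From library to library, the median deviation of the 30 genes was -0.16, 0.12 and 0.02 in null replicates 1 to 3 and -0.02, 0.04 and -0.01 in wild type replicates 1 to 3, on the log2(RPKM + 1) scale. Over all genes tested it was -0.07, -0.04 and 0.05 in null replicates and 0.03, -0.01 and 0.04 in wild-type replicates. Of the 30 genes, 28 were higher in null replicate 2 than in null replicate 1, with a median ratio of 1.22, beside 57.7% and a median ratio of 1.02 for all genes. The ratio was 1.56 for Scd1 at one end and 0.813 for Elovl6 at the other. This pattern was noted after the values were seen, and the genes share their library, so no test is given.

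Every role of more than 1 gene had a negative median in null replicate 1 and a positive one in null replicate 2. In null replicates 1 and 2 the median deviation was -0.16 and 0.12 for mevalonate steps, -0.16 and 0.13 for sterol steps, -0.13 and 0.20 for regulators, -0.12 and 0.16 for acetyl-CoA and chain building, and -0.19 and 0.05 for elongation and desaturation, where wild type replicate 2 was higher still at 0.10. The coefficient of variation within a group had a median of 13.3% among null and 7.36% among wild-type animals for the 30 genes, beside 8.16% among null and 8.57% among wild-type animals for all genes tested. Within the null group it ran from 2.32% for Fads2 to 22.4% for Scd1, and within the wild-type group from 2.92% for Pmvk to 17.9% for Idi1. Without null replicate 1 the median log2 difference of the 30 genes was 0.07 and without null replicate 2 it was -0.07, with 0 genes past the adjusted threshold in both.

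The rest of the pathway was followed with 26 other sterol genes and 32 other lipid genes. Of the 26 sterol genes, all tested, 0 passed in either direction and 13 differences were positive and 13 negative, with a median of 0.00. Abca1, which exports cholesterol from cells, had the smallest unadjusted p of these genes. It held 10.7, 9.00 and 10.9 RPKM in null islets, against 9.59, 6.95 and 7.39 RPKM in wild-type islets, with 1 wild-type animal inside the null range (log2 difference 0.32, SE 0.12, limma adjusted p = 0.50). With the acinar mean as a covariate its difference was 0.147 (SE 0.165). Npc2, a cholesterol carrier of lysosomes, averaged 23.2 ± 1.25 RPKM in null and 25.8 ± 0.66 RPKM in wild-type islets, and Msmo1, listed under its older symbol Sc4mol, a sterol oxidase, 21.6 ± 1.62 RPKM in null and 24.7 ± 2.89 RPKM in wild-type islets (SD, n = 3 each).

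Of the 32 other lipid genes, 27 were tested and 0 passed, with 11 positive and 16 negative differences and a median of -0.01. Me1, the malic enzyme that supplies NADPH for fatty acid synthesis, held 3.91, 3.49 and 3.33 RPKM in null islets, against 4.33, 4.61 and 4.48 RPKM in wild-type islets. All null values were lower (log2 difference -0.26, SE 0.07, limma adjusted p = 0.49). Lpin1, a phosphatidate phosphatase of glyceride synthesis, held 8.02, 7.02 and 7.39 RPKM in null islets, against 6.33, 6.18 and 6.49 RPKM in wild-type islets. All null values were higher (log2 difference 0.21, SE 0.07, limma adjusted p = 0.49). Elovl7, another elongase, averaged 1.20 ± 0.10 RPKM in null and 1.47 ± 0.14 RPKM in wild-type islets (SD, n = 3 each; limma adjusted p = 0.60). In this list 3 genes, 11.1%, had no overlap with null lower and 1 gene, 3.7%, with null higher. Among the other sterol genes 2, or 7.69%, had no overlap with null lower and 0 with null higher. Over all genes tested the shares were 13.2% and 1.9%. The counts in both lists are small, and no difference from those shares was tested.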

How the data were processed

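Islet RNA of 3 Ucn3 null and 3 wild-type mice was sequenced, 1 library an animal, from Illumina TruSeq libraries, per the labels' protocols. The authors deposited RPKM values, 1 row per RefSeq transcript. The submitters' processing notes name STAR, bedtools, DESeq and build mm9 without roles or versions. The sources used here do not say how shared reads and strand were handled, and the extraction protocol mentions a cell sort where the labels say mixed islets. Of the 28129 rows, 28011 were usable, since 117 were empty and 1 held text. No replicate number comes from the labels, and no label ties a null animal to a wild-type littermate, so nothing was paired.

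Per symbol, the transcript with the highest mean was kept and genes averaging at least 1 RPKM were tested. Values became log2(RPKM + 1), so differences of low genes are understated, and limma 3.58.1 (R 4.3.3) fitted the genotype alone (eBayes with a mean trend, Benjamini-Hochberg, threshold 0.05). The fit was tested on simulated data with known differences and independent noise for each gene, without shifts shared by a library. Differences are null minus wild type. Intervals come from limma. Depth came from the steps between low RPKM values times GENCODE M21 transcript lengths, found for 97.5% of rows. With a tolerance of 0.1 read, whole numbers came out for 75.7% to 77.3% of these values, and reads are therefore only estimated. Promoter windows are RefSeq's. Figures used matplotlib 3.10.9. Genes named with values in every library were those without overlap, the 6 with the smallest p and the main enzymes and regulators, and the 3 smallest p of each other list. Some results that this rule would name are not reported here. Members and lists were chosen with earlier results of these data known. Alternatives were another pseudocount, filters, no mean trend, 2 scalings, an acinar covariate, summed transcripts, each library left out and, added after the table was seen, limma-voom on estimated reads.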

Additional observations from a re-analysis of the deposited data

How the results depend on the processing

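No gene of the list, and none of the other sterol and lipid genes, passed the adjusted threshold under any alternative tried. The median log2 difference of the 30 genes stayed between -0.07 and 0.08. Over all genes, 2 passed, against 4 with no filter, 1 with a filter at 5 RPKM, 1 with the acinar covariate, 1 with limma-voom on estimated reads, and 1 to 5 with 1 library left out. The 2 listed genes without overlap (6.67%, beside 15.2% of all genes) became 1 with a filter at 5 RPKM, which removes Fads2 (4.76%, beside 17.3%), 5 with median-ratio factors (16.7%, beside 16.1%), 5 with the acinar genes left out (16.7%, beside 13.6%), and 2 to 11 with 1 library left out (6.67% to 36.7%, beside 18.6% to 32.3%). The causes were not tested. No paired analysis was possible because no label ties a null animal to a wild-type littermate.

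Log2 differences, none past the threshold, changed sign as follows. Median-ratio factors gave Sqle 0.023, Stard4 0.024 and Scd1 0.010. Leaving out the acinar genes gave Sqle 0.062, Fdft1 0.009, Pmvk 0.012, Nsdhl 0.015, Stard4 0.056 and Scd1 0.036. The acinar covariate gave Sqle 0.178, Fdps 0.187, Mvk 0.074, Ebp 0.072, Scd1 0.019, Scd2 0.076 and Elovl6 -0.164. With 1 library left out, values ran from -0.113 to 0.088 for Sqle, -0.037 to 0.173 for Dhcr7, -0.163 to 0.027 for Fdps, -0.182 to 0.055 for Mvk, -0.078 to 0.177 for Insig1, -0.039 to 0.213 for Srebf1, -0.061 to 0.028 for Stard4, -0.045 to 0.191 for Fasn, -0.126 to 0.079 for Scd1, -0.088 to 0.129 for Elovl5, -0.014 to 0.149 for Elovl6 and -0.018 to 0.075 for Fads1. Counting error alone gave a coefficient of variation of 8.8% at the lowest estimated count, and 3 animals a group limit what can be detected.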
